A study of Mus musculus with 12 samples.

Results

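Transient receptor potential (TRP) channels of the TRPC and TRPM groups were examined in the hippocampus of mice 1 h after the passive avoidance (PA) task, in which a mouse learns to stay out of a dark chamber where it received a foot shock. The 9 genes, *Trpc1*, *Trpc4*, *Trpc5*, *Trpc6*, *Trpc7*, *Trpm2*, *Trpm3*, *Trpm4* and *Trpm7*, were found by gene symbol among the 37991 genes with counts, and all 9 were among the 16399 genes that passed the expression filter. Poly(A) RNA-seq libraries came from 12 mice on the C57BL/6N strain, 6 labelled Wildtype and 6 labelled *Gadd45a*-KO, siblings from crosses of heterozygous mice. According to the labels, all of them were 6 to 7 months old and went through PA, so that no untrained group was compared, whereas the study's methods describe male mice with a younger age range. The knockout is constitutive, and a neomycin cassette under the *Pgk* promoter stands in place of the first exons of *Gadd45a*, with its last exon left.

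TRP channels are tetrameric cation channels, most of which let sodium and calcium into the cell, while TRPM4 passes monovalent ions and hardly any calcium. TRPC channels open downstream of receptors that couple through Gq to phospholipase C. TRPC1, TRPC4 and TRPC5 assemble with each other, and TRPC6 and TRPC7 are gated by diacylglycerol. TRPM channels are more varied in what opens them, from ADP-ribose (TRPM2) and intracellular calcium (TRPM4) to steroids and heat (TRPM3), and TRPM7 carries a kinase on its own C terminus. In hippocampal neurons, TRPC channels are known for the slow depolarizations and plateau potentials that follow activation of metabotropic glutamate or muscarinic receptors.

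The 9 genes share 1 short signature, the TRP box, which follows the last membrane-spanning segment. To show it, the coding sequence of each gene (NCBIM37 annotation) is given over 66 bases, with the 18 bases that encode the TRP box in capitals. The capitals are the single place in each coding sequence that encodes tryptophan and lysine, any residue, alanine or glutamine, and arginine in a row, with the codon before them.
Trpc1: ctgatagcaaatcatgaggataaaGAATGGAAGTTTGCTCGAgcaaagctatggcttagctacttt
Trpc4: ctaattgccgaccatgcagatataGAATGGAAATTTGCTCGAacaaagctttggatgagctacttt
Trpc5: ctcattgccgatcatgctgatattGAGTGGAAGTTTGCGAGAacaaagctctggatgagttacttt
Trpc6: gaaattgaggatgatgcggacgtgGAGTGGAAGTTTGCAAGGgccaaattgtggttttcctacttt
Trpc7: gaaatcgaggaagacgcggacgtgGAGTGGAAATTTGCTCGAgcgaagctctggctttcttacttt
Trpm2: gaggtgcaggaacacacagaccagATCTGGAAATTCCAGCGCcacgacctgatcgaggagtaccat
Trpm3: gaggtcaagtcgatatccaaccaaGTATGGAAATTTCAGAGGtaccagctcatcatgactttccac
Trpm4: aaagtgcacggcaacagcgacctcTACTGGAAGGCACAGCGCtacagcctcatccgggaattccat
Trpm7: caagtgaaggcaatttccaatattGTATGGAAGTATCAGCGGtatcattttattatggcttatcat
The box of *Trpc5* lies on the minus strand at chrX:140822863-140822880 in exon 8 of 11, that of *Trpm3* on the plus strand at chr19:23053083-23053100 in exon 24 of 26, and that of *Trpm7* on the minus strand at chr2:126642626-126642643 in exon 24 of 39. Over the whole coding sequence, *Trpc5* was closest to *Trpc4*, with 71.3% identical bases in a global alignment without counting gaps, against 64.4% to *Trpc1*. *Trpc6* and *Trpc7* were 71.6% identical, and *Trpm3* and *Trpm7* 65.7%. Within the box, *Trpc4* and *Trpc5* had 14 of 18 bases in common.

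Between 44594261 and 55540601 reads per library fell on genes. Values are CPM, the reads of a gene relative to the size of its library after TMM scaling. The labels were compared by the quasi-likelihood F-test of edgeR, and p-values were adjusted after Benjamini and Hochberg over all tested genes, with a threshold of 1% false discovery rate (FDR). The targeted gene went against the labels. *Gadd45a* had 2.19 to 3.43 CPM in the libraries labelled Wildtype and 20.5 to 23.1 CPM in those labelled *Gadd45a*-KO, and counts per gene do not separate the exon that the knockout keeps. Libraries are therefore named by label, and "lower" means lower in the libraries labelled *Gadd45a*-KO. Replicate 3 labelled *Gadd45a*-KO stood apart in markers of oligodendrocytes (8 of 8 genes expressed), with a summed 7733 CPM against 2444 to 3932 CPM in the other 11 libraries. Its choroid plexus marker sum was also the highest (372 CPM), with 279 CPM of it from *Enpp2* alone. All 8 oligodendrocyte markers had a positive log2 fold change (median 0.45), with 7 at an unadjusted edgeR p under 0.05 and 0 called by edgeR or DESeq2. Thalamus markers, also 10 of 10 positive (median 0.82, 5 at an unadjusted p under 0.05, 0 called by edgeR or DESeq2), summed to 564 to 647 CPM in Wildtype and 583 to 1170 CPM in *Gadd45a*-KO, with replicates 3 (1170 CPM) and 2 (856 CPM) highest. The 10 endothelial and mural cell markers were all positive as well (median 0.14, 5 at an unadjusted p under 0.05, 0 called), at 281 to 363 against 332 to 369 CPM. The markers listed for hippocampal neurons summed to between 10869 and 12132 CPM in all 12 libraries, so that neuronal RNA was present in each. These markers do not by themselves tell hippocampal neurons from other neurons.

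At 1% FDR, *Trpc5* and *Trpm3* were lower in *Gadd45a*-KO than in Wildtype, by 67.0% and 43.5%, and 0 of the 9 channels were called higher. *Trpm7* missed the 1% threshold at an adjusted p of 0.0109, and the other 6 channels had adjusted p-values from 0.243 to 0.980. Among all tested genes, 2.62% were lower and 0.0244% higher at 1% FDR, which is the background for the 2 of 9 channels called. At 5% FDR, 3 of 9 channels passed, all of them lower, against 4.43% of all tested genes that were lower. By DESeq2, 3 of 9 passed at 1% FDR and none of them was higher, against 661 lower and 19 higher among 25857 genes with reads. With an unadjusted edgeR p under 0.05 were 4 of 9, again all lower. This count, like those at the same p in the marker and gene lists, is given without its share over all tested genes. Whether such counts exceed that share was thus not tested. The median log2 fold change was -0.10 over the 9 channels and 0.00 over all tested genes. The study lists *Trpc5* and *Trpm3* among the ion channel genes it discusses from these same libraries, so that their calls here are not independent evidence. Without *Gadd45a*-KO replicates 2 and 3, the libraries highest in thalamus markers, *Trpc5* was at -1.52 (adjusted p = 1.86e-05) and *Trpm3* at -0.75 (adjusted p = 0.00735), an alternative added after the values were seen. The part of oligodendrocytes and endothelial cells in the channel values was not tested.

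**Figure D1:**
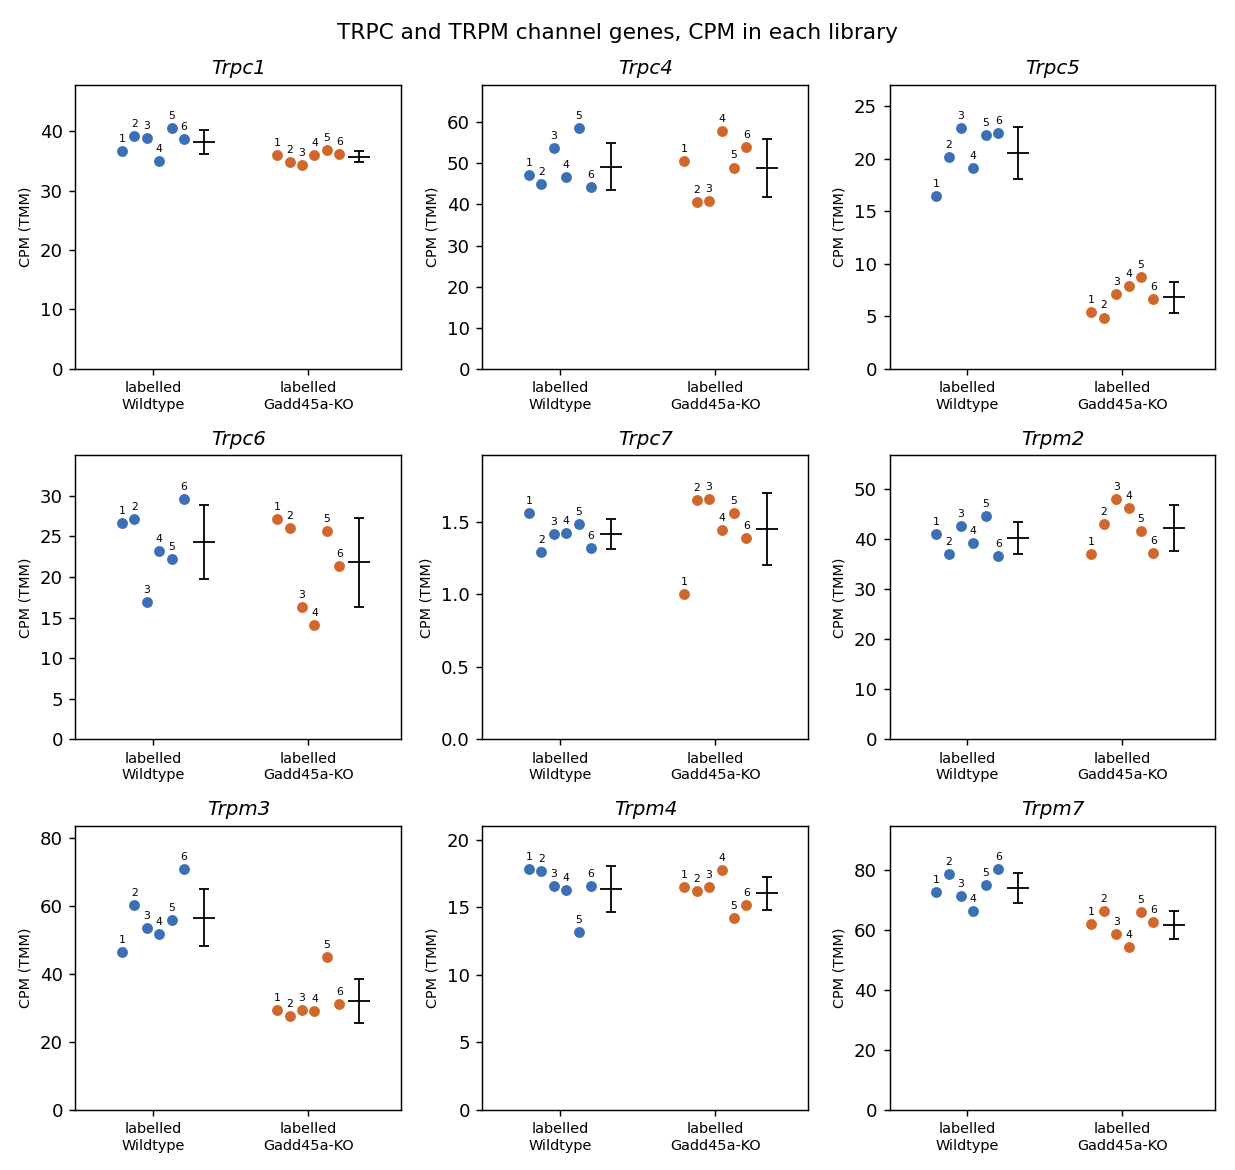
CPM (TMM-scaled, linear axis from 0) of each TRP channel gene in every library, numbered by replicate, with the mean and SD of each label in black (n = 6). *Trpc5* and *Trpm3* show no overlap between the labels, and *Trpm7* overlaps by 1 library at about 66.1 CPM. *Trpc1* overlaps in part, with 35.0 to 40.5 CPM in Wildtype and 34.3 to 36.9 CPM in *Gadd45a*-KO, and the remaining genes overlap broadly.

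The TRPC genes that form one assembly group, *Trpc1*, *Trpc4* and *Trpc5*, did not differ between the labels to the same extent. *Trpc5* (ENSMUSG00000041710, chrX:140816214-141122723, minus strand, NCBIM37) had 16.4, 20.1, 22.9, 19.1, 22.2 and 22.5 CPM in Wildtype replicates 1 to 6. In *Gadd45a*-KO replicates 1 to 6 it had 5.43, 4.88, 7.08, 7.90, 8.77 and 6.65 CPM. The highest *Gadd45a*-KO library thus stayed well under the lowest Wildtype library. The means were 20.5 ± 2.50 CPM (SD, n = 6) and 6.78 ± 1.47 CPM (SD, n = 6), and the log2 fold change was -1.60 (SE 0.13, adjusted p = 3.83e-06). The two-sided exact permutation p was 0.00216, the smallest that 6 against 6 libraries allow. Between 222 and 1246 reads per library lay behind these values. Among the 16399 tested genes, *Trpc5* had the 19th lowest log2 fold change.

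*Trpc4* (ENSMUSG00000027748, chr3:53959979-54122389, plus strand), the closest relative of *Trpc5* by sequence, was not called. Its Wildtype libraries had 47.2, 44.9, 53.7, 46.8, 58.6 and 44.3 CPM. The *Gadd45a*-KO libraries had 50.7, 40.6, 40.9, 58.0, 49.0 and 54.1 CPM. Both labels covered nearly the same range, with replicate 5 highest in Wildtype and replicate 4 highest in *Gadd45a*-KO. The log2 fold change was -0.01 (SE 0.09, adjusted p = 0.980), and its sign turned to 0.02 to 0.05 when Wildtype replicate 3 or 5 or *Gadd45a*-KO replicate 2 or 3 was left out. *Trpc1* (ENSMUSG00000032839, chr9:95607046-95650777, minus strand), which needs partners such as TRPC4 or TRPC5 to form channels, varied least among the 9 genes. It ranged from 35.0 to 40.5 CPM in Wildtype (median 38.8) and from 34.3 to 36.9 CPM in *Gadd45a*-KO (median 36.0). The log2 fold change of -0.10 (SE 0.04) had an adjusted p of 0.243, with an unadjusted exact permutation p of 0.0281.

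Because *Trpc5* was called and its partners were not, the difference between them was tested directly as the ratio of reads within each library, a test chosen after the values had been seen. The log2 ratio of *Trpc5* to *Trpc4* was -1.26 ± 0.19 (SD, n = 6) in Wildtype and -2.87 ± 0.30 (SD, n = 6) in *Gadd45a*-KO. That difference of -1.60 did not leave any overlap between the labels (two-sided exact permutation p = 0.00216, adjusted p = 0.00325 over 3 such ratios). For *Trpc5* to *Trpc1* the difference was -1.52, with the same exact permutation p of 0.00216. Both ratios were picked because *Trpc5* was called and its partners were not, so their p-values add no independent evidence. The adjustment over 3 ratios does not count that choice. As a description, the transcripts of the group were present in different proportions in these libraries, since *Trpc5* fell relative to both partners. Such a ratio is free of library scaling, but says nothing on the channels as proteins.

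*Trpc6* and *Trpc7*, the diacylglycerol-gated channels, did not pass the test. *Trpc6* (ENSMUSG00000031997, chr9:8544432-8680565, plus strand) had 26.7, 27.2, 16.9, 23.2, 22.3 and 29.7 CPM in Wildtype. In *Gadd45a*-KO it had 27.2, 26.1, 16.3, 14.1, 25.7 and 21.4 CPM. Wildtype replicate 3 and *Gadd45a*-KO replicates 3 and 4 were low, and the labels overlapped over most of their range (log2 fold change -0.16, SE 0.16, adjusted p = 0.776). *Trpc7* (ENSMUSG00000021541, chr13:56874474-56997150, minus strand) was the rarest of the 9, with 51 to 86 reads per library. It ranged from 1.29 to 1.56 CPM in Wildtype and from 1.00 to 1.66 CPM in *Gadd45a*-KO, with *Gadd45a*-KO replicate 1 lowest and replicate 3 highest. With a log2 fold change of 0.03 and an SE of 0.12, a change of a few percent in *Trpc7* was not detectable at this depth.

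The low *Trpc6* libraries were also low in markers of dentate granule cells, the principal neurons of the dentate gyrus. The 8 markers, among them *Prox1*, the transcription factor that defines granule cells, *C1ql2* and *Calb1*, were all expressed and summed to 667 to 946 CPM in Wildtype and 457 to 829 CPM in *Gadd45a*-KO. The lowest sums were those of *Gadd45a*-KO replicates 4 and 3 (457 and 610 CPM) and Wildtype replicate 3 (667 CPM), the same 3 libraries in which *Trpc6* was lowest. Across libraries, log2 CPM of *Trpc6* and the log2 marker sum had Pearson's r = 0.966 within Wildtype (exact permutation p = 0.00139, n = 6). Within *Gadd45a*-KO, r was 0.960 (exact permutation p = 0.00278, n = 6). With both labels centred on their means, r was 0.955 (exact permutation within labels, p = 3.86e-06, n = 12) and Spearman's rho 0.971 (exact permutation p = 4.24e-05, n = 12). After the 2 libraries farthest from the median marker sum, *Gadd45a*-KO replicates 3 and 4, were left out, r was 0.951. In bulk tissue, fewer granule cells and less RNA per granule cell cannot be told apart, and the part of granule cells in the *Trpc6* values was not tested.

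This was 1 of 90 relations computed between the 9 channels and 10 marker lists, with all choices made after earlier results were known, and it was the one with a Benjamini-Hochberg adjusted p under 0.05 (0.000347 for r and 0.00382 for rho, exact permutations). By r, the next was that of *Trpm7* with the granule cell markers, with a label-centred r of 0.797 (adjusted p = 0.126 over the 90 exact permutation tests) and a rho of 0.657 (adjusted p = 0.334, exact permutations). Its r dropped to 0.555 without the 2 farthest libraries. *Trpc5* did not show the pattern of *Trpc6*. Its lowest library, *Gadd45a*-KO replicate 2, had a marker sum of 798 CPM, and its highest, Wildtype replicate 3, one of 667 CPM. The 8 granule cell markers themselves had a median log2 fold change of -0.19, and 0 of them were called by edgeR or by DESeq2 at 1% FDR, with 1 at an unadjusted edgeR p under 0.05.

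**Figure D2:**
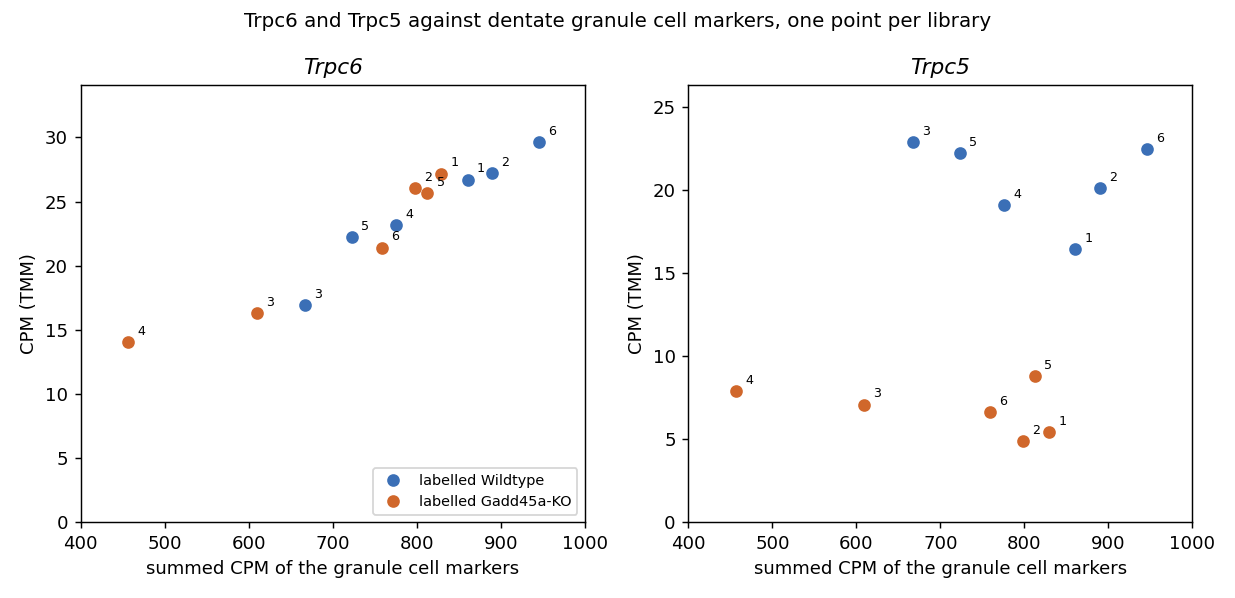
CPM of *Trpc6* (left) and *Trpc5* (right) on linear axes from 0 against the summed CPM of 8 dentate granule cell markers, 1 point per library, numbered by replicate. *Trpc6* rises with the markers from 14.1 to 29.7 CPM across both labels, whereas *Trpc5* separates by label. The marker sums of the labels overlap in part, with 667 to 946 CPM in Wildtype and 457 to 829 CPM in *Gadd45a*-KO.

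Of the TRPM genes, *Trpm3* was the one called. *Trpm3* (ENSMUSG00000052387, chr19:22213609-23064374, plus strand) encodes a calcium-permeable channel opened by pregnenolone sulfate and heat. It had 46.6, 60.4, 53.6, 51.9, 56.0 and 70.8 CPM in Wildtype replicates 1 to 6. In *Gadd45a*-KO replicates 1 to 6 it had 29.4, 27.7, 29.4, 29.1, 45.1 and 31.1 CPM. The labels did not overlap, but *Gadd45a*-KO replicate 5 lay close under the lowest Wildtype library and far above the other 5 of its label. The means were 56.6 ± 8.36 CPM (SD, n = 6) and 32.0 ± 6.52 CPM (SD, n = 6), with a log2 fold change of -0.82 (SE 0.12, adjusted p = 0.000802) and a two-sided exact permutation p of 0.00216. Without *Gadd45a*-KO replicate 5 the log2 fold change was -0.94 (adjusted p = 2.36e-05).

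*Trpm3* is known to be abundant in the choroid plexus. The 16 choroid plexus markers summed to 189 CPM in *Gadd45a*-KO replicate 5, within the 164 to 237 CPM of Wildtype, and were highest in *Gadd45a*-KO replicate 3 (372 CPM), in which *Trpm3* had 29.4 CPM. *Enpp2* and *Kl*, which other brain cells also express, made up most of these sums, with 152 and 26.6 CPM in replicate 5 and 279 and 30.2 CPM in replicate 3. *Ttr*, which defines the choroid plexus epithelium, had 5.17 to 26.6 CPM in Wildtype and 2.82 to 45.3 CPM in *Gadd45a*-KO, with replicate 5 the lowest and replicate 3 the highest of all 12 libraries. The part of choroid plexus in the *Trpm3* values was not tested. *Trpc5* was also highest of its label in *Gadd45a*-KO replicate 5, at 8.77 CPM. Over the 430 genes lower at 1% FDR, replicate 5 was the highest *Gadd45a*-KO library in 258 (60.0%), while over all tested genes it was the highest in 14.0%. The 430 genes were chosen by this contrast, so these shares are a description.

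*Trpm7* (ENSMUSG00000027365, chr2:126617301-126701966, minus strand), the channel with a kinase domain that carries magnesium, zinc and calcium, was 16.7% lower on average, without passing 1% FDR. Its Wildtype libraries had 72.7, 78.4, 71.1, 66.1, 75.0 and 80.1 CPM. The *Gadd45a*-KO libraries had 61.9, 66.1, 58.6, 54.1, 65.96 and 62.4 CPM. *Gadd45a*-KO replicate 2 and Wildtype replicate 4 met at 66.1 CPM, and the other 5 *Gadd45a*-KO libraries were below all of Wildtype. The log2 fold change was -0.26 (SE 0.06, adjusted p = 0.0109), with a two-sided exact permutation p of 0.00433. The 1% call depended on the analysis. DESeq2 gave an adjusted p of 0.000517 and the fit without Wildtype replicate 4 one of 0.00658. An offset for the length of annotated exons brought the log2 fold change to -0.18 and the adjusted p to 0.0767. *Trpm7* passed under 6 of 23 alternatives.

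The log2 ratio of *Trpm3* to *Trpm7* fell from -0.40 ± 0.15 (SD, n = 6) in Wildtype to -0.96 ± 0.24 (SD, n = 6) in *Gadd45a*-KO (two-sided exact permutation p = 0.00433, also adjusted over 3 ratios). Thus *Trpm3* changed more than *Trpm7*, although the ratios of the labels overlapped. This ratio, too, was chosen after the values were seen, so its p adds no independent evidence.

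*Trpm2* and *Trpm4*, which are opened by ADP-ribose and by intracellular calcium, did not pass the test. *Trpm2* (ENSMUSG00000009292, chr10:77370467-77433308, minus strand) ranged from 36.6 to 44.6 CPM in Wildtype (median 40.0) and from 36.9 to 48.0 CPM in *Gadd45a*-KO (median 42.3), a log2 fold change of 0.07 (SE 0.07, adjusted p = 0.768). *Trpm4* (ENSMUSG00000038260, chr7:52558002-52589150, minus strand) ranged from 13.2 to 17.8 CPM in Wildtype and from 14.2 to 17.7 CPM in *Gadd45a*-KO, a log2 fold change of -0.03 (SE 0.07, adjusted p = 0.932). Wildtype replicate 5, at 13.2 CPM, was far below the 16.3 to 17.8 CPM of the other Wildtype libraries, and the sign of the *Trpm4* change turned to 0.00 to 0.02 without Wildtype replicate 1 or 2 or *Gadd45a*-KO replicate 5.

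Every *Gadd45a*-KO library was below every Wildtype library for 2 of the 9 channels, *Trpc5* and *Trpm3*, and for 3.12% of all tested genes. The figure of all genes shows where the 9 channels lie.

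**Figure D3:**
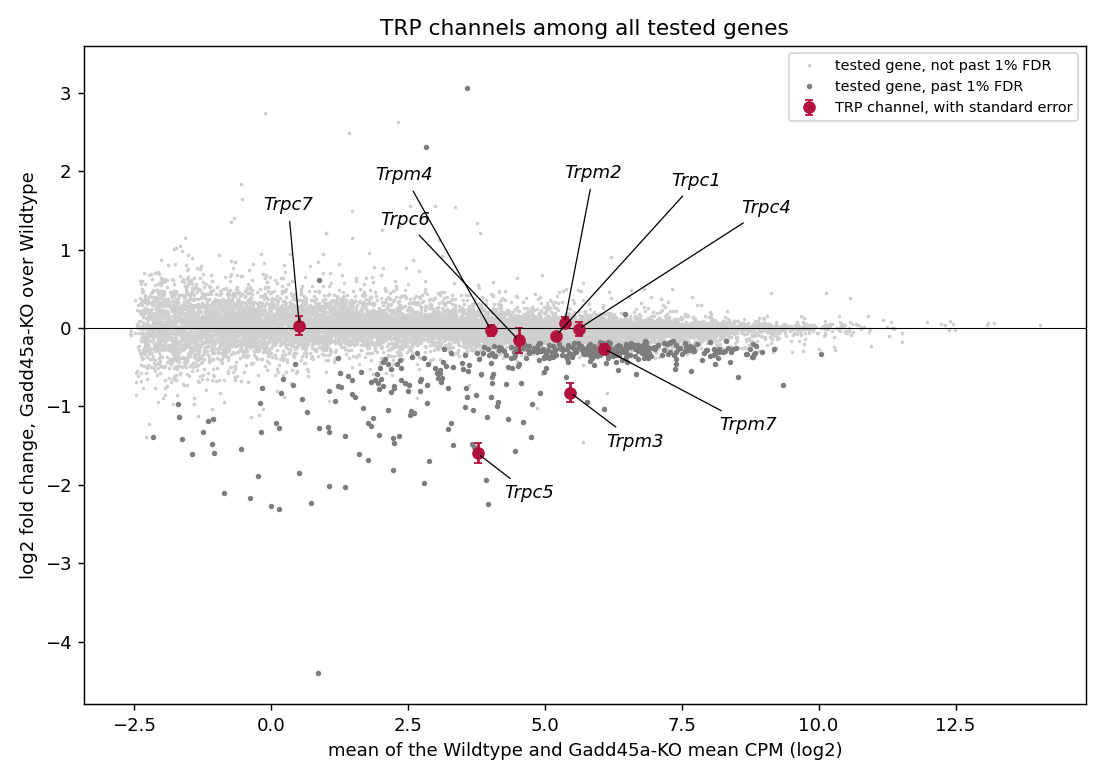
Log2 fold change (*Gadd45a*-KO over Wildtype) of all 16399 tested genes against their mean CPM (log2 axis), with genes past 1% FDR in dark grey and the 9 TRP channels in red with their standard errors. *Trpc5* (-1.60) and *Trpm3* (-0.82) lie below the bulk, and the other 7 channels between -0.26 and 0.07.

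As reads also depend on transcript length, levels of different channels were compared as CPM per kilobase of annotated exons. In Wildtype the order was *Trpc4* (14.2 ± 1.64, SD, n = 6), *Trpc1* (12.7 ± 0.66), *Trpc6* (8.71 ± 1.62), *Trpm3* (6.87 ± 1.02), *Trpm7* (6.53 ± 0.45), *Trpc5* (4.10 ± 0.50), *Trpm4* (3.43 ± 0.35), *Trpm2* (3.25 ± 0.26) and *Trpc7* (0.385 ± 0.027). The ranges of neighbours did not overlap at 3 steps, from *Trpc1* to *Trpc6*, from *Trpm7* to *Trpc5* and from *Trpm2* to *Trpc7*. All other neighbours overlapped. In *Gadd45a*-KO, *Trpc5* dropped from the 6th to the 8th place (1.35 ± 0.29, SD, n = 6), with no overlap with either neighbour, and *Trpm3* (3.88 ± 0.79) stood below *Trpm7* (5.44 ± 0.41) with overlapping ranges. The order depends on the length used. With the longest annotated transcript in place of all exons, *Trpm7* rose to 10.4 and the 3rd place in Wildtype and *Trpm2* to 5.50.

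**Figure D4:**
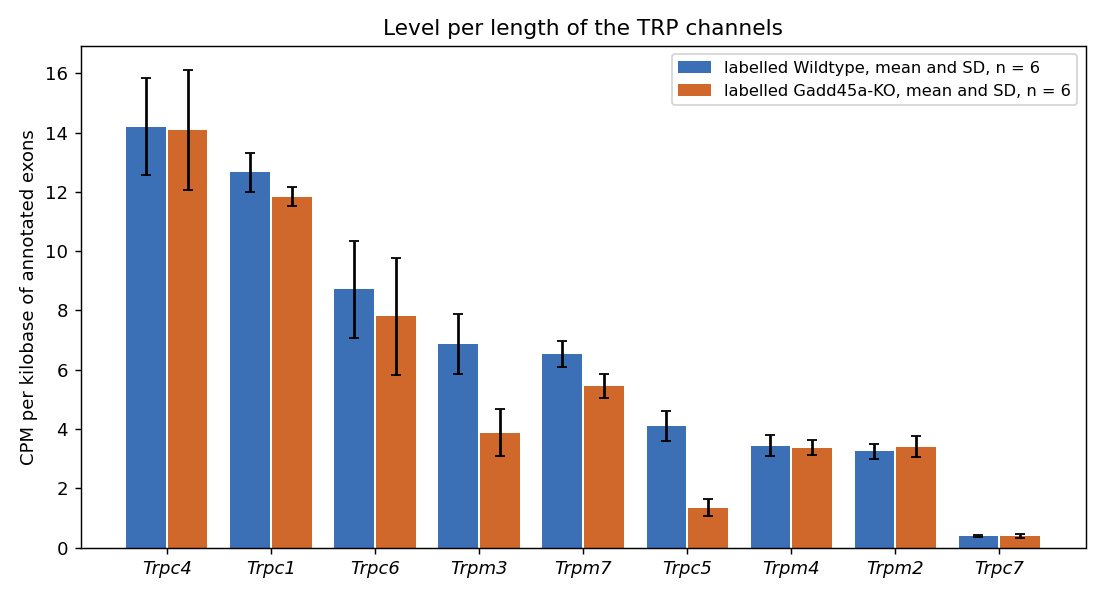
Mean level of each channel in CPM per kilobase of annotated exons (linear axis from 0, bars with SD, n = 6 libraries per label), ordered by the Wildtype mean. *Trpc4* and *Trpc1* are highest in both labels and *Trpc7* lowest, and the bars of *Trpc5* and *Trpm3* differ most between the labels.

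Summed over the 5 TRPC genes, Wildtype libraries had 134 ± 6.80 CPM (SD, n = 6) and *Gadd45a*-KO libraries 115 ± 8.56 CPM (SD, n = 6). The 4 TRPM genes summed to 187 ± 11.1 CPM and 152 ± 8.20 CPM (SD, n = 6 each). In both sums the lowest Wildtype library was above the highest *Gadd45a*-KO library, with 125 against 122 CPM for TRPC and 173 against 167 CPM for TRPM. The sums include the called genes, *Trpc5* (means of 20.5 and 6.78 CPM) and *Trpm3* (56.6 and 32.0 CPM), and do not show a fall of every member. Of the 9 channels, 7 had a negative log2 fold change and 2, *Trpc7* and *Trpm2*, a positive one. *Trpc5* made up 10.2% ± 1.07 (SD, n = 6) of the summed TRPC level per length in Wildtype and 3.83% ± 0.83 (SD, n = 6) in *Gadd45a*-KO. The share of *Trpm3* in the TRPM level was 34.1% ± 3.02 and 23.99% ± 3.63 (SD, n = 6 each).

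By span, all 9 channels lay above the median tested gene. *Trpm3* spans 851 kb, longer than 99.5% of tested genes, and *Trpc5* 306 kb, longer than 97.0%, while the median tested gene spans 21802 bases. When the genes were split by span into 5 groups of equal size, 6 of the 9 channels were in the group with the longest span, in which 7.18% of genes were lower at 1% FDR, and the other 3 into the group next in length, with 3.27% lower. *Trpm7*, *Trpm2* and *Trpm3* were also in the top group of the same split by exonic bases, in which 8.68% of genes were lower, against 0.703% in the bottom group. *Trpc4*, *Trpc6* and *Trpc7* have spans of 162, 136 and 123 kb and were not called. With an offset for the length of annotated exons in the fit, *Trpc5* stayed at -1.60 (adjusted p = 3.35e-06) and *Trpm3* was at -0.78 (adjusted p = 0.00075). An offset for span was not fitted, and whether length has a part in the fall of the called channels was not tested further.

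No channel shares exonic bases with another annotated gene, so that their counts do not hold reads that could belong to a neighbour on the same sequence. *Mir204*, a microRNA gene inside an intron of *Trpm3* on the same strand, had 0 reads in all 12 libraries, which is what poly(A) libraries can show of a microRNA. The longest annotated 3′UTR was 827 bases for *Trpc5* and 1574 bases for *Trpm3*. Among the channels not called, it was 2454 bases for *Trpm2*, 1334 for *Trpm4*, 1261 for *Trpm7* and 651 for *Trpc7*. *Trpc4* had 311 bases and *Trpc1* 113 bases, while *Trpc6* had none. The median was 1058 bases over the 14866 tested genes with a value, which can be 0 as for *Trpc6*. Reads beyond these ends were not counted to the gene.

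A list of 19 other TRP genes (among them TRPV, TRPA, mucolipin and polycystin genes) was used for comparison. Of these, 12 were tested and 0 were called in either direction by edgeR or by DESeq2, with 2 at an unadjusted edgeR p under 0.05 and a median log2 fold change of 0.00. *Pkd2*, the polycystin cation channel of cilia and endoplasmic reticulum, and *Mcoln1*, the lysosomal channel, had Wildtype means of 76.3 and 59.4 CPM. *Trpv5* had 0 reads in all 12 libraries.

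Upstream of TRPC channels stand receptors, Gq proteins, phospholipase C and the enzymes that remove diacylglycerol. Of 27 such genes 26 were tested, 2 were lower and 0 higher at 1% FDR (7.69% lower, against 2.62% of all tested genes), with a median log2 fold change of -0.06. *Dgki*, a diacylglycerol kinase that converts diacylglycerol to phosphatidic acid, fell from 23.2 ± 5.39 to 12.1 ± 1.32 CPM (SD, n = 6 each), without overlap between 16.7 to 32.1 and 10.3 to 13.6 CPM (log2 fold change -0.94, SE 0.13, adjusted p = 0.000576). *Grm5*, the Gq-coupled metabotropic glutamate receptor mGluR5, fell from 306 ± 21.3 to 243 ± 17.3 CPM (SD, n = 6 each), again without overlap (log2 fold change -0.33, SE 0.05, adjusted p = 0.00193). The study names *Grm5* among its genes of interest from these samples, so its place here is not independent evidence. By DESeq2 5 of the 26 were called, against 661 lower and 19 higher among 25857 genes with reads. Besides *Dgki* and *Grm5*, these were *Dgkb*, *Htr2a* and *Plcb1*. *Dgkb* was at -0.29 (adjusted p = 0.000892 by DESeq2 and 0.0126 by edgeR) and *Htr2a* at -0.45 (0.000773 and 0.015), both without overlap between the labels. *Plcb1* was at -0.19 (0.0094 and 0.0353). *Gnaq*, not called, was at -0.03 (edgeR adjusted p = 0.873).

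In the 4 other lists around the channels, 0 genes were called at 1% FDR by edgeR. The 5 STIM and ORAI genes of store-operated calcium entry lay between -0.06 and 0.05 on the log2 scale, with 0 at an unadjusted p under 0.05 and 0 called by DESeq2. The 21 binding partners and regulators, such as the Homer scaffolds and calmodulins, had a median of 0.00, with 3 at an unadjusted p under 0.05 and 0 called by DESeq2. *Homer1* was at -0.28 (adjusted p = 0.0864). The 10 ADP-ribose and NAD genes that bear on TRPM2 had a median of 0.01, with 0 at an unadjusted p under 0.05 and 0 called by DESeq2. Among the 14 magnesium transport genes beside *Trpm7* the median was 0.02, with 2 at an unadjusted p under 0.05 and 1, *Nipa1*, called by DESeq2 (adjusted p = 0.00161, against 0.0151 by edgeR).

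The genes whose library-to-library pattern was most like that of the called channels were listed by Pearson's r of log2 CPM centred within each label over the 12 libraries, which share depth and dissection. For *Trpc5* these were *Gm5567* (0.975), *Kcna2* (0.971), a voltage-gated potassium channel, *Dcc* (0.964), the netrin receptor, *Chd6* (0.956) and *Prrc2c* (0.955). Of these, *Dcc* was lower at -1.98 on the log2 scale (adjusted p = 1.82e-05) and *Prrc2c* with -0.45 (adjusted p = 0.00866), and the other 3 did not pass 1% FDR. For *Trpm3* they were *Arhgap21* (0.946), *Sntb2* (0.939), *Aqr* (0.922), *Setd2* (0.921) and *Msl3* (0.914). *Sntb2*, a syntrophin, was lower at -1.05 on the log2 scale (adjusted p = 0.0001) and *Setd2*, a histone methyltransferase, had -0.32 (adjusted p = 0.003). By the same measure, *Trpc5* had an r of 0.669 with *Trpm3* and of 0.417 with *Trpc4*.

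**Figure D5:**
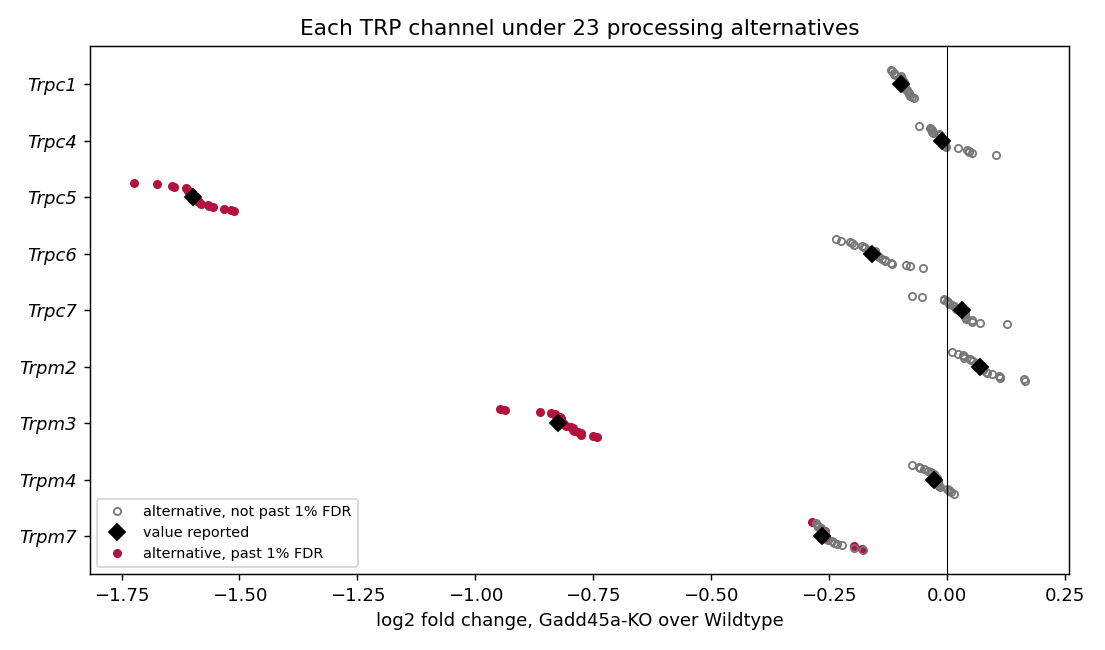
Log2 fold change (*Gadd45a*-KO over Wildtype) of each channel as reported (black diamond) and under 23 alternatives of normalization, filter, test, offset and libraries used, filled red where past 1% FDR. *Trpc5* stays between -1.72 and -1.51 and *Trpm3* between -0.95 and -0.74, past the threshold in all 23, whereas *Trpm7* passes in 6 of 23.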

How the data were processed

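Poly(A) RNA of 12 hippocampi, 6 labelled Wildtype and 6 labelled *Gadd45a*-KO, was sequenced by the authors from stranded libraries. Per the labels' processing notes, TopHat 1.4.1, SAMtools, HTSeq 0.5.4p3 and DESeq 1.16.0 were used with NCBIM37/mm9. The deposited values are read counts per Ensembl gene, without normalization or pooling. Rows without a gene (24.1% to 26.3% of the total) were left out.

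Symbols, structure and coding sequences came from GENCODE vM1 on NCBIM37, an annotation close to but not the one of the authors, which matched 37205 of 37991 gene IDs. Where a symbol had several IDs, the ID with most reads was taken. edgeR 4.0.16 (R 4.3.3) filtered genes by expression, scaled by TMM and fitted all 16399 genes in the 12 libraries without covariates. Log2 CPM used a prior count of 2. Alternatives were DESeq2 1.42.0, RLE size factors, no filter, at least 10 reads in every library, 5% FDR, a replicate block, offsets for GC content or length (splines with 5 degrees of freedom), and leaving out each library. Leaving out *Gadd45a*-KO replicates 3 and 5, or 2 and 3, together, the ratios between channels and the marker relations were added after the values were seen. Exact permutation tests over 924 assignments used scipy 1.17.1 (Python 3.11.15), alignments with Biopython 1.88 and figures with matplotlib 3.10.9. On simulated data, edgeR recovered 185 of 200 genes changed by 1 on the log2 scale, with 1 other gene called among 16285.

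The channels and gene lists were chosen with earlier results of these data known. The genes named are all 9 channels, list genes past 1% FDR, genes whose relation to a channel is described, the 5 genes most alike to each called channel, and markers that move with a channel. *Homer1*, *Gnaq*, *Plcb1*, *Dgkb*, *Htr2a*, *Pkd2*, *Mcoln1* and *Nipa1* were named after their values were seen. Library pairs of one label differed beyond counting error (in 30 pairs, chi-square over its degrees of freedom was at least 9.03). The labels give 1 mouse per library, so n counts mice.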

Additional observations from a re-analysis of the deposited data

Results flagged for a closer look

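Within each label, libraries were searched for a single value far from the other 5, over the 9 channels, their 2 sums and 10 marker lists. Of 42 such groups 7 were far off, where about 2.1 would be so by chance, since about 1 in 20 groups exceeds the 95% limit. Of the 18 groups of channel values, 2 were far off, against about 0.9 by chance.

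*Trpm3* had 45.1 CPM in *Gadd45a*-KO replicate 5, while the other 5 libraries of the label had 27.7 to 31.1 CPM. *Trpm4* had 13.2 CPM in Wildtype replicate 5, against 16.3 to 17.8 CPM in the others.

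In *Gadd45a*-KO replicate 3, oligodendrocyte markers summed to 7733 CPM against 3165 to 3932 CPM in the others of its label. Choroid plexus markers summed to 372 CPM against 179 to 244 CPM, and astrocyte markers to 3987 CPM against 4409 to 4542 CPM. *Enpp2* alone had 279 CPM of that choroid plexus sum, against 135 to 158 CPM in the others of the label. *Slc1a2* made up most of the astrocyte sum, with a *Gadd45a*-KO mean of 2779 CPM against 4387 CPM for all 8 markers. Its log2 fold change was negative (-0.18), while 7 of the 8 astrocyte markers were positive. Microglia markers summed to 413 CPM in *Gadd45a*-KO replicate 6, against 362 to 375 CPM. Markers of hippocampal neurons summed to 10869 CPM in Wildtype replicate 6, against 11401 to 11607 CPM. No channel was far off in *Gadd45a*-KO replicates 3 or 6 or in Wildtype replicate 6.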

How the results depend on the processing

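Of 207 values of the 9 channels under the alternatives, 187 kept their sign and their side of the 1% FDR threshold. *Trpc5* and *Trpm3* were past it under all 23. *Trpm7* (adjusted p = 0.0109) passed with DESeq2 (log2 fold change -0.26), without a filter (-0.26), with the replicate block (-0.26), with the GC or length offset and the block (-0.20 and -0.18), and without Wildtype replicate 4. Its adjusted p ranged from 0.000517 to 0.0767 over the alternatives. The cause was not tested. The number of channels called was 2 or 3 throughout. Changes near 0 turned sign. *Trpc7* was at -0.0063 with the GC offset and block, and without *Gadd45a*-KO replicates 3 and 5 together *Trpc4* was at 0.0464, *Trpc7* at -0.0518 and *Trpm4* at 0.0047, and without replicates 2 and 3 *Trpc4* was at 0.1047 and *Trpc7* at -0.0747, none of them called.

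With 1 library left out, the log2 fold change ranged from -1.67 to -1.51 for *Trpc5*, -0.94 to -0.74 for *Trpm3*, -0.29 to -0.22 for *Trpm7*, -0.11 to -0.07 for *Trpc1*, -0.0581 to 0.0534 for *Trpc4*, -0.24 to -0.05 for *Trpc6*, -0.0053 to 0.13 for *Trpc7*, 0.04 to 0.11 for *Trpm2* and -0.073 to 0.0153 for *Trpm4*. *Trpc7* turned sign without *Gadd45a*-KO replicate 3. The label difference of the TRPC sum ranged from -20.7 to -16.2 CPM and that of the TRPM sum from -38.3 to -31.9 CPM. Over all genes, 239 to 467 were lower and 3 or 4 higher in place of 430 and 4. The count of lower genes moved by more than 1.5 times without Wildtype replicate 3 (268), 5 (239) or 6 (261) or *Gadd45a*-KO replicate 1 (248), 2 (276) or 6 (248). DESeq2 gave 661 lower and 19 higher, and 5% FDR 726 and 20. Higher genes numbered 12 with the GC offset, 10 with the length offset, and 16 and 11 when the block was added. Without *Gadd45a*-KO replicates 3 and 5, 332 were lower, and without replicates 2 and 3, 199.

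With the longest transcript as length, Wildtype levels were 4.94 for *Trpc5*, 5.50 for *Trpm2*, 8.39 for *Trpm3*, 3.81 for *Trpm4* and 10.4 for *Trpm7*, in CPM per kilobase. Libraries with the same replicate number correlated between -0.0761 and 0.262 in their deviations from the label means, with 5 of 6 over 0.1. The mean was 0.140 for libraries with the same number and -0.0279 for those with other numbers. Of 12 libraries, 4 correlated best with their own number. Whether the numbers mark pairs was not settled, and the main fit did not use them. The replicate block gave 509 lower and 5 higher genes and added *Trpm7* to the called channels. Depth limits *Trpc7*, with 51 to 86 reads per library.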
